A study of Mus musculus with 6 samples.

Results

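Heat shock proteins and molecular chaperones were examined in mouse leukemia stem cells, the cells able to start the leukemia anew in a recipient. Genes were taken by symbol: the HSP families (Hspa, Hspb, Hspd, Hspe, Hsph and Hsp90), the J-domain families Dnaja, Dnajb and Dnajc, the Cct subunits of the TRiC chaperonin, the Bag co-chaperones, the heat shock factors, and Tcp1, Stip1 and Ahsa1. Symbols that end in a pseudogene suffix were dropped, which left 98 of the 53735 genes of the deposited table. The cells came from 3 liver libraries and 3 bone marrow libraries. All 6 were labelled as male mice of strain C57, without treatment, taken at day 13 after leukemia cells were transplanted. The labels name neither the leukemia model nor the sorting markers, and they call the libraries technical replicates without naming separate animals. The p-values below therefore reflect library-to-library spread alone, and part of it may be technical.

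Chaperones bind unfolded or partly folded proteins and use ATP to fold them, hold them or pass them on. In the cytosol, J-domain proteins of the HSP40 family deliver clients to HSP70, nucleotide exchange factors release them, and HSP90 completes the folding of kinases and hormone receptors. A constitutive set of these genes is always on, while heat shock factor 1 (HSF1) binds repeats called heat shock elements and switches on an inducible set during heat, oxidative or folding stress. The endoplasmic reticulum (ER) and the mitochondria have chaperones of their own, under separate stress responses. The inducible genes also respond to handling of cells during tissue dissociation.

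The inducible pair Hspa1a and Hspa1b lies side by side in the major histocompatibility region of chromosome 17, and both promoters carry the same element. Sequences were taken from RefSeq promoter windows on build GRCm38.p6, which hold 250 bases before and 50 after a gene's start. A window was matched for 80 of the 98 genes. The stretches printed here are the 150 bases before the start of the 3 genes with the largest called increases in liver, 5′ to 3′ on the gene's strand. Capitals mark a heat shock element of 2 units, searched as GAANNTTC or TTCNNGAA, each of which reads the same on both strands.
Hspa1a, chr17:34972157-34972306, minus strand: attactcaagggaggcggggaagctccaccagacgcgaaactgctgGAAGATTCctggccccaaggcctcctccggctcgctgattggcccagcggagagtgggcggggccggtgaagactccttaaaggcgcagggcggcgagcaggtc
Hspa1b, chr17:34959239-34959388, minus strand: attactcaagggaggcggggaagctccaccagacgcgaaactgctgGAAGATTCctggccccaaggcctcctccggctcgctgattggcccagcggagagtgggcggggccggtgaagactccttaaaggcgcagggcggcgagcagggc
Dnajb1, chr8:83608025-83608174, plus strand: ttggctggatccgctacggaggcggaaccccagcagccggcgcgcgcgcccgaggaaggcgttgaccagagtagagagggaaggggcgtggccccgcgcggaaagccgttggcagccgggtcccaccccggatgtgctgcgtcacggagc
The Hspa1a and Hspa1b stretches differ at 1 of the 150 bases, and their whole upstream windows at 3 of 250. The element begins 104 bases before the start in both. Neither Dnajb1 window held these letters.

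Shorter stretches of 30 bases are printed for 4 further genes, with the 2-unit elements inside them in capitals.
Dnaja1, chr4:40722333-40722362, plus strand: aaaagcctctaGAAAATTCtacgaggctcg
Hsph1, chr5:149636351-149636380, minus strand: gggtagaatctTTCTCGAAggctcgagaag
Hspb1, chr5:135887801-135887830, plus strand: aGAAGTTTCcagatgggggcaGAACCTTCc
Hspe1, chr1:55088053-55088082, plus strand: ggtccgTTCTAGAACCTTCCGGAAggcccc
The printed Hsph1 element is 1 of 3 in its window. The others begin at bases 37 and 42, counting the start as 1, and overlap into a 3-unit element. The Hspe1 stretch lies upstream of Hspe1 and within the annotated span of Hspd1, which is transcribed in the opposite direction. It holds 3 overlapping 2-unit elements. Of 7 inducible cytosolic genes with a window, 6 held a 2-unit element (85.7%), compared with 4587 of the 27025 genes of the RefSeq table (17%). Of all 80 chaperone genes with a window, 22 held one (27.5%). An element of 3 units, GAANNTTCNNGAA or its reverse complement TTCNNGAANNTTC, was found for 4 genes (Hspd1, Hspe1, Dnajb6 and Hsph1), which is 5% of the 80, compared with 0.662% of all genes. For contrast, capitals mark the ER stress element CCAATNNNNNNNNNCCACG in the promoter of Hspa5, the ER member of the HSP70 family.
Hspa5, chr2:34772019-34772048, plus strand: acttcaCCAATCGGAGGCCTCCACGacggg
Searched on both strands, it was found for 3 of the 11 ER chaperone genes with a window (Hspa5, Hsp90b1 and Dnajc3) and for 0.137% of all genes. These matches describe the letters of a window, and no binding was measured.

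The libraries held 13.8, 9.73 and 11.4 M recovered reads for liver replicates 1 to 3 and 15.4, 16.2 and 18.5 M for bone marrow replicates 1 to 3. The deposited values are normalized counts, in which 1 read was worth 0.988 to 1.42 in liver and 0.744 to 0.898 in bone marrow. Replicate 3 was intermediate between replicates 1 and 2 of its tissue for 50.8% of all genes tested in liver and 43.7% in bone marrow. A further count took genes with a tissue mean of at least 50 normalized counts that differed at least 2-fold between replicates 1 and 2. Replicate 3 was intermediate for 93.3% of 879 such genes in liver and 93.8% of 353 such genes in bone marrow. Its median position among them was 0.589 in liver and 0.528 in bone marrow. Positions are on the scale of normalized counts, not log2, where 0 is replicate 1 and 1 is replicate 2. Xist, the RNA of the inactive X chromosome, had 6229, 1.42 and 2425 normalized counts in liver replicates 1 to 3 and 4860, 4.28 and 2486 in bone marrow replicates 1 to 3, although every library is labelled male. The Y-linked genes summed to 0, 2675 and 1634 in liver replicates 1 to 3 and to 145, 2987 and 1553 in bone marrow replicates 1 to 3. The labels do not say whether replicate 3 is a sample of its own or holds material of the others, which was not tested, and n counts libraries throughout. Results are therefore also given without both replicate 3 libraries. All 7 leukemia stem and progenitor markers were measured, with sums of 14055 to 14312 normalized counts in liver and 15648 to 16184 in bone marrow. In the limma fit described below, 2 of their log2 fold changes were positive and 5 negative, with 0 called. At an unadjusted limma p under 0.05, Kit (0.38) and Hoxa9 (0.22) were higher in liver and Cd34 (-0.54) and Ly6a (-0.86) lower. The hepatocyte markers Alb, Ttr, Serpina1a and Fgb, the endothelial marker Cdh5 and the Kupffer cell markers Clec4f, Vsig4 and Cd5l were listed at 0 in all 6 libraries. The whole hepatocyte list of 8 genes summed to 2311 to 3064 normalized counts in liver and 2674 to 5697 in bone marrow, nearly all of it Apoa1 (2285 to 3003 in liver and 2645 to 5659 in bone marrow). The endothelial list of 6 genes summed to 436 to 1396 in liver and 343 to 1079 in bone marrow, nearly all of it Pecam1, and the Kupffer cell list of 6 genes to at most 9.88 in liver and 8.92 in bone marrow.

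Inducible HSP70, its HSP40 partner Dnajb1, HSP90 alpha and the mitochondrial HSP10 were higher in leukemia cells from liver than in those from bone marrow, and no chaperone gene was called lower. Of the 98 genes, 80 had a mean of at least 10 normalized counts and were tested with limma on log2(normalized count + 1), with Benjamini-Hochberg adjustment over all 14298 genes tested. At an adjusted p under 0.05, 5 were higher in liver (Hspa1a, Hspa1b, Dnajb1, Hsp90aa1 and Hspe1), 0 were lower and 75 were not called. Over all genes tested, 60 (0.42%) were higher in liver and 85 (0.594%) lower. Without both replicate 3 libraries none of the 80 was called by limma, 12 had an unadjusted p under 0.05 (5.64% of all genes did), and over all genes 0 (0%) were called higher and 2 (0.014%) lower. With all libraries, 29 of the 80 had an unadjusted p under 0.05, compared with 15.7% of all genes tested. Of these 29, 24 were higher and 5 lower in liver. On the recovered reads, edgeR called 4 of the 80 higher and 0 lower (0.371% and 0.574% of all genes tested), and DESeq2 called 11 higher and 0 lower (1.92% and 2.43% of all genes tested).

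The log2 fold change was positive for 61 of the 80 tested chaperone genes and negative for 19, with a median of 0.11. Over all genes tested it was positive for 6924 and negative for 7374, with a median of -0.01. For 31 of the 80 every liver library was above every bone marrow library, which held for 11.4% of all genes tested. For 4 (Dnajc10, Dnajb14, Dnajc16 and Dnaja4) every liver library was below, which held for 10.9% of all genes. The chaperone genes were the more abundant ones, with a median level of 1200 normalized counts compared with 364 over all genes tested, and these background shares are not matched for level. The class and list counts below are to be read beside the same shares. For an unadjusted limma p under 0.05 in either direction the share is 15.7%. Together the 98 genes took 1.81%, 1.87% and 1.84% of all normalized counts in liver replicates 1 to 3 and 1.52%, 1.64% and 1.58% in bone marrow replicates 1 to 3. In bulk libraries, more cells with a transcript and more RNA per cell cannot be told apart.

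**Figure D1:**
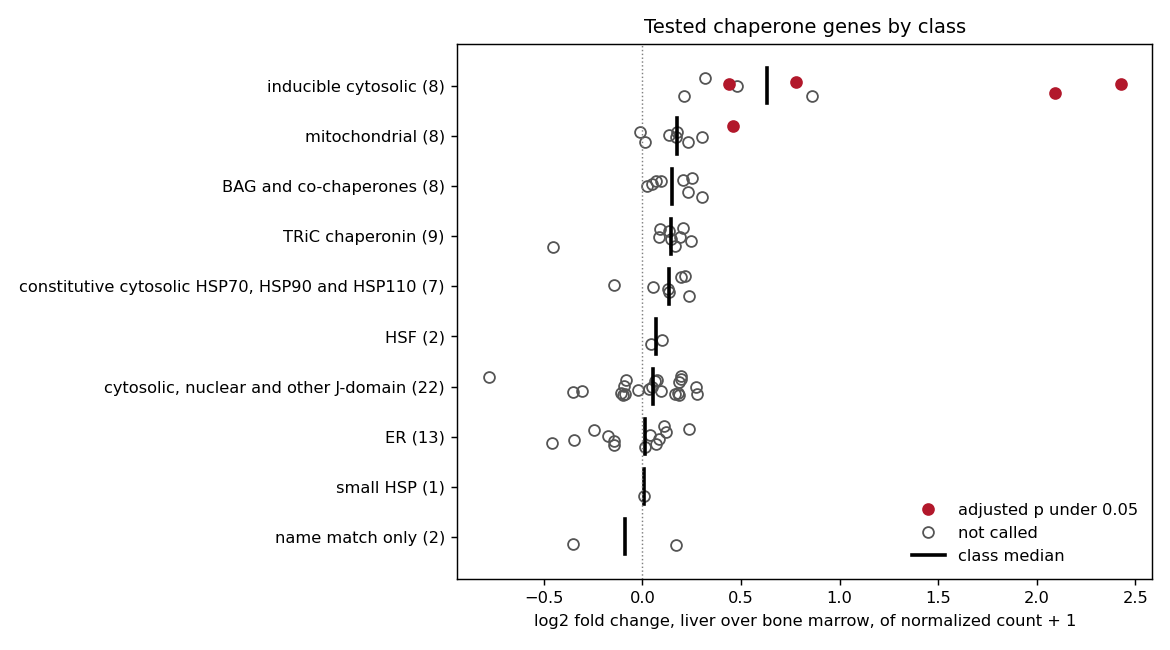
Log2 fold change, liver over bone marrow, of each of the 80 tested chaperone genes (x axis, on the scale of log2 normalized count + 1), by class (y axis, number tested in parentheses). Filled points passed an adjusted p under 0.05, open points did not, and black bars are class medians, which run from 0.63 for the inducible cytosolic class to 0.01 for the ER class among classes with more than 2 tested genes.

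The inducible cytosolic genes moved furthest. This class holds 8 genes, all tested: with limma 4 rose (Hspa1a, Hspa1b, Dnajb1 and Hsp90aa1), 4 were not called, all 8 fold changes were positive, and 6 did not overlap between tissues. Their median log2 fold change was 0.63. DESeq2 called Dnaja1 as well, and edgeR called 3, without Hsp90aa1. The class took 0.231%, 0.205% and 0.215% of all normalized counts in liver replicates 1 to 3 and 0.111%, 0.142% and 0.131% in bone marrow replicates 1 to 3. Its counts depend on where the class was drawn. A 2-unit element was also held by 5 of 23 other J-domain genes with a window (21.7%). Their log2 fold changes were 0.27 for Dnajb4, -0.08 for Dnajb6, -0.09 for Dnajc27 and -0.78 for Dnaja4, and Dnajc5g was not tested.

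Hspa1a (chr17:34969190-34972156, minus strand, GRCm38) encodes the stress-inducible HSP70. It had 3885, 2078 and 2918 normalized counts in liver replicates 1 to 3, against 359, 735 and 573 in bone marrow replicates 1 to 3. The lowest liver library was above the highest bone marrow library. The mean was 2960 ± 904 in liver and 556 ± 188 in bone marrow (SD, n = 3 each), a 5.33-fold ratio of means. The fitted log2 fold change was 2.43 ± 0.298 (SE, limma adjusted p = 0.0228).

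Hspa1b (chr17:34956436-34959238, minus strand), its near-identical neighbour, had 5855, 3625 and 4475 normalized counts in liver replicates 1 to 3, against 738, 1506 and 1095 in bone marrow replicates 1 to 3. The tissues again did not overlap. The log2 fold change was 2.09 ± 0.267 (SE, limma adjusted p = 0.0272). These genes are not independent measurements: 66.3% of the 50-base stretches of Hspa1a transcripts and 62.3% of those of Hspa1b also occur in transcripts of other genes, so the split of reads between them is uncertain. Hspa1a also shares 564 exon bases with Gm20481. The third gene of the cluster, Hspa1l, a testis form of HSP70, was too low to be tested, with 6.92, 2.84 and 4.82 normalized counts in liver replicates 1 to 3 and 7.18, 13.7 and 11.9 in bone marrow replicates 1 to 3.

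Both HSP70 genes differed in opposite directions between replicates 1 and 2 of the tissues. In liver replicate 1 was the highest and replicate 2 the lowest, while in bone marrow replicate 2 was the highest and replicate 1 the lowest. Replicate 3 lay between them in both tissues. Between libraries with the same number, the liver over bone marrow ratio of Hspa1a was 10.8 for replicate 1, 2.83 for replicate 2 and 5.1 for replicate 3. For Hspa1b it was 7.93, 2.41 and 4.09. These are ratios of 1 library per tissue, with no test.

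Dnajb1 (chromosome 8), the HSP40 protein that stimulates the HSP70 ATPase, had 3720, 3296 and 3416 normalized counts in liver replicates 1 to 3, against 1910, 2106 and 2052 in bone marrow replicates 1 to 3. The libraries of each tissue lay close together and far from the other tissue. The log2 fold change was 0.78 ± 0.0682 (SE), the smallest adjusted p of the chaperone genes (limma, 0.00853). Of its 50-base stretches, 0.41% occur in transcripts of other genes.

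Hsp90aa1 (chromosome 12) encodes the inducible HSP90 alpha. Its normalized counts were 13088, 14015 and 13757 in liver replicates 1 to 3 and 9013, 10988 and 10187 in bone marrow replicates 1 to 3, without overlap. The log2 fold change was 0.44 ± 0.0749 (SE), close to the threshold (limma adjusted p = 0.0481), and edgeR on the recovered reads did not call it (adjusted p = 0.0522). The assignment of reads is uncertain here too, since 47.5% of its 50-base stretches occur in transcripts of other genes.

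**Figure D2:**
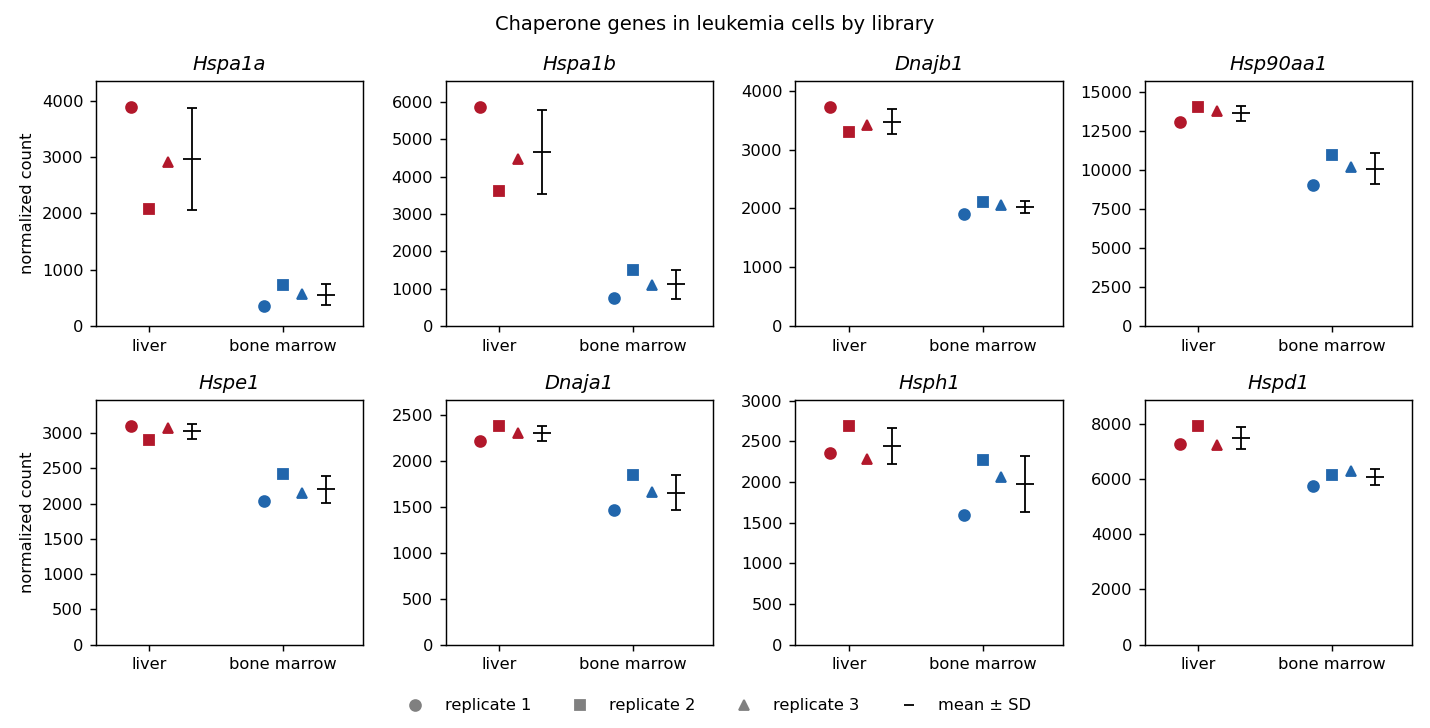
Normalized counts (y axis, from 0) of 8 chaperone genes in the 3 liver and the 3 bone marrow libraries, with symbols for the replicate number and the mean ± SD beside them. Every liver library is above every bone marrow library for all 8 genes, only just so for Hsph1. As a ratio of means, the gap is widest for Hspa1a and Hspa1b.

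The other inducible genes missed the threshold. Dnaja1, another HSP40 partner of HSP70, had 2220, 2381 and 2301 normalized counts in liver replicates 1 to 3, against 1459, 1844 and 1660 in bone marrow replicates 1 to 3, without overlap (log2 fold change 0.48, limma adjusted p = 0.0656). Hsph1, the HSP105 nucleotide exchange factor, averaged 2443 ± 218 in liver and 1974 ± 347 in bone marrow (SD, n = 3 each; log2 fold change 0.32, limma adjusted p = 0.307). Both were higher in every liver library, but for Hsph1 the lowest liver library and the highest bone marrow library nearly touched, at 2277 and 2270. Of the 50-base stretches of Dnaja1, 20.55% occur in transcripts of other genes.

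Bag3, a co-chaperone that links HSP70 to autophagy, averaged 276 ± 22.2 normalized counts in liver and 240 ± 42.2 in bone marrow (SD, n = 3 each; limma adjusted p = 0.570). The small heat shock protein gene Hspb1 had 87.9, 17.1 and 72.2 normalized counts in liver replicates 1 to 3 and 21.6, 37.7 and 21.6 in bone marrow replicates 1 to 3 (log2 fold change 0.86, limma adjusted p = 0.563). Its tissues overlapped because liver replicate 2 was the lowest of the 6 libraries, and 50.1% of its 50-base stretches occur in other transcripts.

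How firmly the calls stood depended on single libraries. Leaving out 1 library at a time, Dnajb1 and Hspa1b were called in 3 of 6 fits, Hspa1a in 2, and Hsp90aa1 and Hspe1 in 1. No chaperone gene was called without liver replicate 3, without bone marrow replicate 1 or without bone marrow replicate 3, fits in which 0.00699%, 0.014% and 0.00699% of all genes tested were called higher in liver. There were 8 called without liver replicate 1, where 1.48% of all genes were called higher. There were 3 without liver replicate 2 (0.189% of all genes) and 2 without bone marrow replicate 2 (0.028% of all genes). With 1 library left out the log2 fold change ran from 2.14 to 2.66 for Hspa1a and from 1.83 to 2.34 for Hspa1b. It ran from 0.73 to 0.82 for Dnajb1, 0.36 to 0.51 for Hsp90aa1 and 0.41 to 0.53 for Hspe1. For each of these genes replicate 3 lay between replicates 1 and 2 in both tissues, so leaving it out could move the sizes little. Without both replicate 3 libraries they were 2.47 for Hspa1a, 2.13 for Hspa1b, 0.80 for Dnajb1, 0.44 for Hsp90aa1 and 0.43 for Hspe1. Their limma adjusted p-values were then 0.872, 0.872, 0.737, 0.872 and 0.872, and their unadjusted p-values 0.00303, 0.0037, 0.000784, 0.0152 and 0.0146.

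The constitutive relatives gave smaller differences. This class of cytosolic HSP70, HSP90 and HSP110 genes has 9 members, of which 7 were tested and 0 called by limma, with 6 positive fold changes and a median of 0.14. At an unadjusted p under 0.05 there were 2, both higher in liver, and DESeq2 called Hspa8 while edgeR called 0. Hspa8, the constitutive HSC70, had 25724, 26765 and 25609 normalized counts in liver replicates 1 to 3 and 21615, 23497 and 22055 in bone marrow replicates 1 to 3. The tissues did not overlap, but the log2 fold change was only 0.22 ± 0.0469 (SE, limma adjusted p = 0.0881). Other transcripts hold 39.4% of the 50-base stretches of Hspa8. Hsp90ab1, the constitutive HSP90 beta, averaged 29831 ± 2387 in liver and 25995 ± 1815 in bone marrow (SD, n = 3 each), with overlap (limma adjusted p = 0.264).

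Hspa4 and Hspa4l, nucleotide exchange factors of the HSP110 family, had log2 fold changes of 0.05 and 0.24 (limma adjusted p = 0.677 and 0.368), and their tissues overlapped. Hspa14, a ribosome-associated HSP70 protein, had 0.14 without overlap (limma adjusted p = 0.388), and Hspa2, an HSP70 gene best known from testis, had -0.14 (limma adjusted p = 0.765).

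A ratio of an inducible gene to its constitutive relative within each library removes scaling. The log2 ratio of Hspa1a plus Hspa1b to Hspa8 was -1.40, -2.23 and -1.79 in liver replicates 1 to 3 and -4.30, -3.39 and -3.73 in bone marrow replicates 1 to 3, a difference of 2.00. The difference was 0.86 for Dnajb1 over Dnajb6, 0.41 for Dnaja1 over Dnaja2, 0.24 for Hsp90aa1 over Hsp90ab1 and 0.26 for Hsph1 over Hspa4. The tissues did not overlap for the first 4 of these 5 ratios. Each of those had an exact two-sided permutation p of 0.1, the smallest that 3 libraries against 3 allow, and 0.125 after adjustment over the 5 pairs. Hsph1 over Hspa4 overlapped (exact permutation p = 0.2, adjusted p = 0.2). This permutation test therefore cannot reach 0.05 for any of them. The relative Dnajb6 itself had a log2 fold change of -0.08, compared with 0.78 for Dnajb1. Dnajb6 also held a 3-unit heat shock element, and 20.97% of its 50-base stretches occur in transcripts of other genes.

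**Figure D3:**
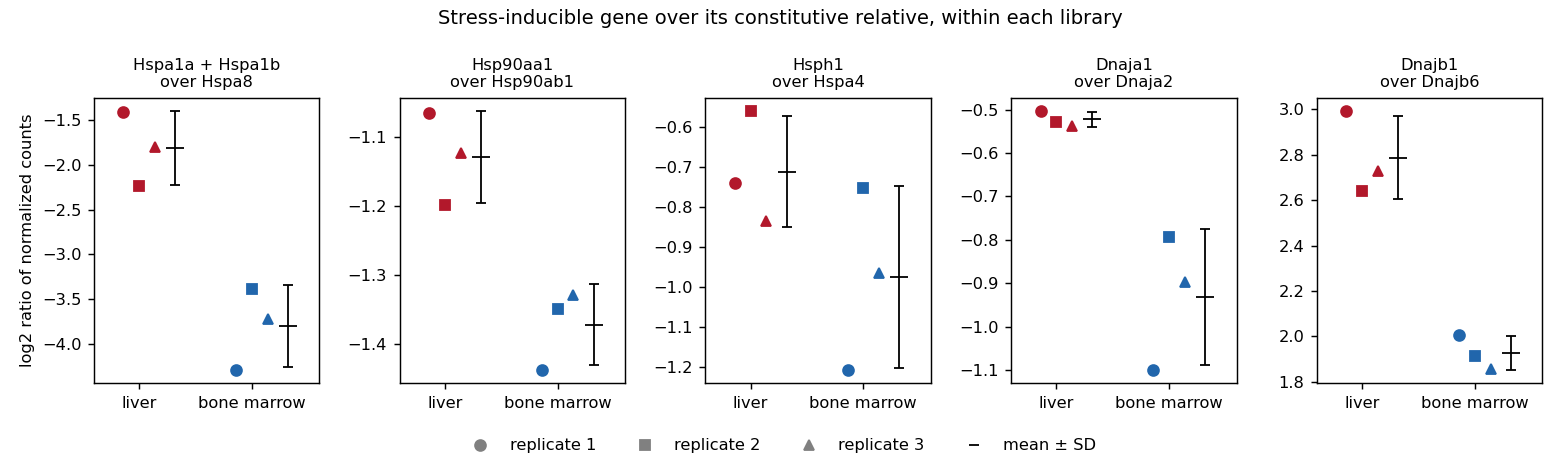
Log2 ratio of normalized counts (y axis) of an inducible gene to its constitutive relative within each of the 3 liver and 3 bone marrow libraries, with the mean ± SD beside them; each panel has its own y range. Liver lies above bone marrow without overlap for 4 of the 5 ratios, by 2.00 for Hspa1a plus Hspa1b over Hspa8.

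Per kilobase of exon the order of levels was led by Hsp90ab1, Hspa8 and Hspa5 in both tissues. Hsp90ab1 averaged 9947 normalized counts per kb in liver and 8668 in bone marrow, Hspa8 had 6053 in liver and 5206 in bone marrow, and Hspa5 had 4847 in liver and 4466 in bone marrow. Hsp90aa1 reached 3465 per kb in liver and 2560 in bone marrow. Hspa1b (1659 per kb in liver and 397 in bone marrow), Dnajb1 (1085 in liver and 631 in bone marrow) and Hspa1a (998 in liver and 187 in bone marrow) were well below Hspa8 in both tissues.

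Mitochondrial chaperones held the fifth called gene. Of 8 genes, 1 rose with limma, 7 were not called, 7 fold changes were positive and the median was 0.17. DESeq2 called Hspd1 as well. Hspe1 (chr1:55088132-55091307, plus strand) encodes HSP10, the lid of the HSP60 folding chamber. It had 3105, 2904 and 3075 normalized counts in liver replicates 1 to 3, against 2041, 2419 and 2154 in bone marrow replicates 1 to 3, and the tissues did not overlap. Its log2 fold change was 0.46 ± 0.0748 (SE, limma adjusted p = 0.0431). Of its 50-base stretches, 22.8% occur in transcripts of other genes.

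Hspd1, the HSP60 gene beside it that shares its promoter stretch, had 7263, 7920 and 7232 normalized counts in liver replicates 1 to 3 and 5736, 6152 and 6285 in bone marrow replicates 1 to 3. These did not overlap either, with a log2 fold change of 0.30 that missed the threshold (limma adjusted p = 0.0694). The annotated exons of the pair share 112 bases, and 42.1% of the 50-base stretches of Hspd1 occur in other transcripts. Hspa9, the mitochondrial HSP70, had 0.13 (limma adjusted p = 0.247) and Dnaja3, its J-domain partner, 0.18 (limma adjusted p = 0.332), both without overlap. Dnajc11, of the inner membrane organising system, had 0.17 without overlap and Dnajc15, of the protein import motor, 0.23 with overlap (limma adjusted p = 0.314 and 0.422).

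The TRiC chaperonin, the ring that folds actin and tubulin, had 9 genes, 0 of them called by limma or edgeR. At an unadjusted limma p under 0.05 there were 5, all higher in liver, and DESeq2 called Cct6a and Cct8. For 7 of the 9 (Tcp1, Cct3, Cct4, Cct5, Cct6a, Cct7 and Cct8) every liver library was above every bone marrow library, and the class median was 0.14. Over all genes tested, 11.4% lay above in this way and 15.7% had an unadjusted limma p under 0.05 in either direction. Cct6a was the nearest to the threshold, with 8600, 8933 and 8610 normalized counts in liver replicates 1 to 3 and 7183, 7798 and 7095 in bone marrow replicates 1 to 3 (log2 fold change 0.24, limma adjusted p = 0.0868). Cct8 followed with 0.20 (limma adjusted p = 0.0970). Cct5, the most abundant subunit, had 0.09 (limma adjusted p = 0.409). The low testis subunit Cct6b averaged 9.46 normalized counts in liver and 12.7 in bone marrow and gave the only negative value of the class, -0.46 (limma adjusted p = 0.747).

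The BAG proteins and other co-chaperones had 8 positive fold changes among 8 tested genes, 0 called by limma or edgeR, and a median of 0.15. At an unadjusted limma p under 0.05 there were 3, and DESeq2 called Stip1. Stip1, which bridges HSP70 to HSP90, had 3906, 4413 and 4156 normalized counts in liver replicates 1 to 3 and 3247, 3609 and 3263 in bone marrow replicates 1 to 3, without overlap (log2 fold change 0.30, limma adjusted p = 0.0981). Ahsa1, the activator of the HSP90 ATPase, had 0.23 (limma adjusted p = 0.148) and the HSP70 exchange factor Hspbp1 0.21 (limma adjusted p = 0.242), both without overlap. Bag1, Bag2 and Bag4 overlapped between tissues, with log2 fold changes of 0.05, 0.25 and 0.10.

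The ER chaperones were divided in sign, with 7 positive and 6 negative fold changes among 13 tested genes and a median of 0.01. Limma, edgeR and DESeq2 each called 0 of them, and at an unadjusted limma p under 0.05 there were 2 higher and 4 lower in liver. Hspa5 (BiP), the main HSP70 of the ER, had 20873, 20660 and 19956 normalized counts in liver replicates 1 to 3 and 18757, 19135 and 18763 in bone marrow replicates 1 to 3. Liver was higher without overlap, by a log2 fold change of 0.12 (limma adjusted p = 0.215). Hsp90b1, the HSP90 of the ER, had 0.24 without overlap (limma adjusted p = 0.195). Below bone marrow in every library were Dnajc10, a disulfide reductase (-0.25), Dnajb14, a J-domain protein of the ER membrane (-0.35), and Dnajc16 (-0.46), with limma adjusted p-values of 0.224, 0.244 and 0.134.

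Of 28 other J-domain genes, 22 were tested and 0 called by limma, edgeR or DESeq2, with 13 positive and 9 negative fold changes and a median of 0.06. At an unadjusted limma p under 0.05 there were 2 higher and 1 lower in liver, compared with 15.7% of all genes tested in either direction. Dnaja4 had the lowest fold change of all tested chaperone genes, with 96.8, 219 and 171 normalized counts in liver replicates 1 to 3 and 220, 343 and 245 in bone marrow replicates 1 to 3 (log2 fold change -0.78, limma adjusted p = 0.292). The highest liver library and the lowest bone marrow library nearly touched, at 219 and 220, and the gene shares 1581 exon bases with its neighbour Wdr61, from which unstranded reads cannot be told apart. Dnajc9, a histone chaperone, had 0.19 without overlap (limma adjusted p = 0.231). The abundant Dnaja2, Dnajc7 and Dnajc8 overlapped between tissues.

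The heat shock factors themselves differed by less than their spread. Hsf1 averaged 1069 ± 32.5 normalized counts in liver and 1041 ± 93.4 in bone marrow, and Hsf2 averaged 79.8 ± 13.9 in liver and 76.3 ± 25.2 in bone marrow (SD, n = 3 each; limma adjusted p = 0.858 and 0.903). Among small heat shock proteins outside the inducible class only Hspb6 was tested, with a mean of 94.2 normalized counts in liver and 94.1 in bone marrow and a log2 fold change of 0.01 (limma adjusted p = 0.991). Hspbap1 and Hspb11, which match by name but are not known as chaperones, had log2 fold changes of 0.17 and -0.35 (limma adjusted p = 0.783 and 0.680). The 18 genes below the level filter were Dnajb3, Dnajb7, Dnajb8, Dnajc5b, Dnajc5g, Dnajc22, Hspb2, Hspb3, Hspb7, Hspb8, Hspb9, Hspa1l, Hspa12a, Hsf3, Hsf4, Hsf5, Hsf2bp and Cct8l1. Of these, 9 were listed at 0 in all 6 libraries.

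**Figure D4:**
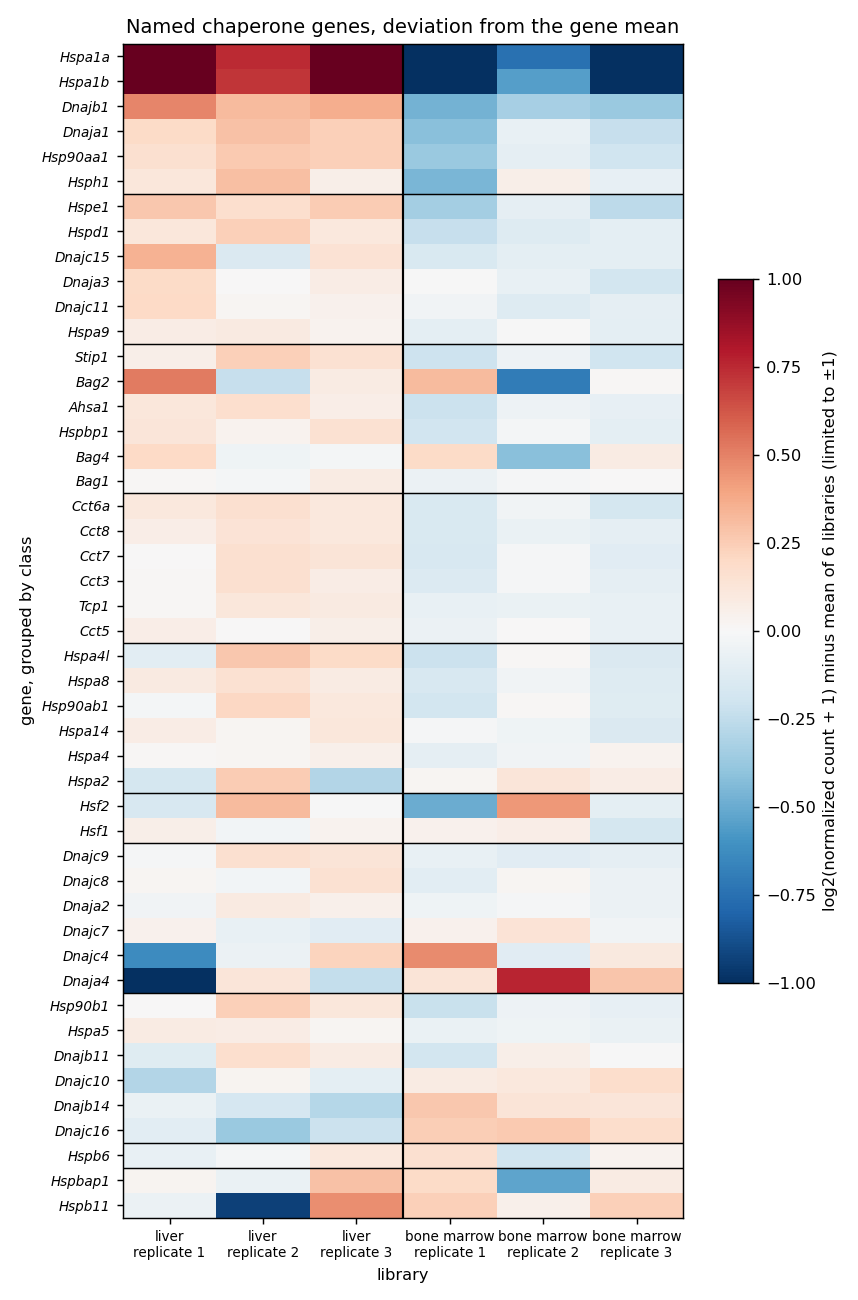
Deviation of log2(normalized count + 1) from the mean of the 6 libraries (colour, limited to ±1) for 47 chaperone genes (rows, grouped by class and ordered by fold change within it) in each library (columns, liver at left). The contrast between tissues is deepest for Hspa1a and Hspa1b. Next are Dnajb1, higher in liver, and Dnaja4, lower in liver, with log2 fold changes of 0.78 and -0.78. Bag2, Bag4 and Hsf2 vary more between replicates than between tissues.

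Genes of the same pathways outside the symbol rule were read from the same fit. Of 11 further HSF1 targets, 9 were tested, and with limma 1 rose and 8 were not called, with 6 positive and 3 negative fold changes and a median of 0.20, while Serpinh1 and Cryab were listed at 0 in all libraries. The one that rose was Ptges3 (p23), an HSP90 co-chaperone, with 3170, 3224 and 3149 normalized counts in liver replicates 1 to 3, against 2537, 2601 and 2515 in bone marrow replicates 1 to 3. Its log2 fold change was 0.32 ± 0.0486 (SE, limma adjusted p = 0.0404), without overlap. Fkbp4, an immunophilin of the HSP90 machine, had 0.32 (limma adjusted p = 0.0677) and Zfand2a 0.48 (limma adjusted p = 0.176). At an unadjusted limma p under 0.05 there were 4 of this list, all higher in liver. The share over all genes tested was 15.7% in either direction. DESeq2 called 3 of this list higher, Ptges3, Fkbp4 and Cacybp.

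Limma called 0 of 17 further HSP90 and HSP70 partners (12 positive, median 0.06, 2 higher at an unadjusted p under 0.05), while DESeq2 called Nudc and Ppid higher and edgeR called 0. It called 0 of 6 prefoldin subunits, which hand actin and tubulin to TRiC (6 positive, median 0.20, 2 higher at an unadjusted p under 0.05), as did edgeR and DESeq2. Of 15 ER folding enzymes limma and edgeR called 0 (10 positive, median 0.02, 1 higher and 1 lower at an unadjusted limma p under 0.05), and DESeq2 called Sil1, an exchange factor of BiP, lower. All of these tools called 0 of 14 mitochondrial import and protease genes (9 positive, median 0.08, 2 higher at an unadjusted limma p under 0.05). Of 15 ER stress and ATF4 response genes 1 rose with limma and 14 were not called, with 4 positive and 11 negative fold changes and a median of -0.14. That gene was Atf4, a transcription factor of the integrated stress response, with 3393, 3561 and 3581 normalized counts in liver replicates 1 to 3, against 2781, 2724 and 2877 in bone marrow replicates 1 to 3 (log2 fold change 0.33, limma adjusted p = 0.0415). At an unadjusted limma p under 0.05, 2 of these stress response genes were higher in liver and 3 lower. The ER stress sensor Ern1 had a log2 fold change of -0.56 (limma adjusted p = 0.0895), and DESeq2 called it lower.

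Some other transcripts moved in the same comparison. Of 18 immediate early genes, which respond to dissociation as well as to growth signals, 1 rose with limma (Atf3) and 17 were not called, with 12 positive and 6 negative fold changes and a median of 0.26. At an unadjusted limma p under 0.05, 5 of the 18 were higher and 2 lower in liver. The share over all genes tested was 15.7% in either direction. DESeq2 called Atf3 and Zfp36 higher and Fosb and Klf6 lower. Atf3 had 418, 523 and 478 normalized counts in liver replicates 1 to 3, against 294, 275 and 256 in bone marrow replicates 1 to 3 (log2 fold change 0.78, limma adjusted p = 0.0415). The summed level of the 18 genes ran from 76079 to 98270 in liver and from 70419 to 88243 in bone marrow, so the sums overlapped. All 5 erythroid markers had negative fold changes, 0 were called by limma or edgeR (2 at an unadjusted limma p under 0.05) and DESeq2 called Hbb-bs and Hbb-bt lower, with sums of 3268 to 4423 normalized counts in liver and 5718 to 6700 in bone marrow. The 7 neutrophil markers, with Ly6g at 0 in all libraries, summed to 18.8 to 385 in liver and 36.8 to 62.5 in bone marrow. Of the 4 tested, 3 fold changes were positive, 1 had an unadjusted limma p under 0.05, and limma, edgeR and DESeq2 called 0. The part of any of these in the chaperone differences was not tested.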

How the data were processed

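RNA was measured in 3 liver and 3 bone marrow libraries of leukemia stem cells. Per the labels' protocols, libraries were made with a low-input SMARTer and Nextera XT kit, which does not mark strand. The submitters' processing notes list Trimmomatic 0.36, STAR 2.6.0c and DESeq2 1.16.1. The sources used here give no build or annotation for the counting step. The deposited signal is a normalized count per gene, which the authors made by dividing read counts by 1 factor per library, per the name of the deposited table. In every library 100% of values were whole multiples of 1 read within 0.01, so reads were recovered for edgeR 4.0.16 and DESeq2 1.42.0 as alternatives.

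From these values, limma 3.58.1 was fitted to log2(normalized count + 1) (variance trend, tissue only, two-sided, Benjamini-Hochberg over all genes tested) for the 14298 of 53735 genes with a mean of at least 10. Fold changes on this scale understate changes of low genes. The fit was tested on simulated data whose libraries were drawn independently. That test cannot show how the p-values behave if replicate 3 holds material of the others or if numbers are paired. Within-library ratios were compared by exact permutation. The members, classes and gene lists were chosen with earlier results of these data known. Named were Hspa1a, Hspa1b, Dnajb1, Hsp90aa1, every member past the threshold, up to 4 of each class with the highest mean and up to 2 further with the largest change (mean of at least 50), and list genes past the threshold. Genes outside this rule were picked with their values in view. Alternatives were quantile normalization, TMM factors, no filter on level, a minimum mean of 50, pseudocounts of 0.5 and 10, edgeR, DESeq2, a replicate block, and leaving out 1 library or both replicate 3 libraries. Gene positions, exon lengths and shared 50-base stretches come from GENCODE M21 (GRCm38). Depths in reads cover counting error only.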

Additional observations from a re-analysis of the deposited data

How the results depend on the processing

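The count of chaperone genes higher in liver was 5, and 0 were lower under every one of the 17 alternatives. It was 11 with DESeq2 and 0 to 8 with 1 library left out, where it was 0 without liver replicate 3, bone marrow replicate 1 or bone marrow replicate 3. Leaving out both replicate 3 libraries gave 0, whether or not the replicate block was used. With all libraries and the replicate block it was 13, which adds Hspd1, Dnaja1, Cct6a, Hspa8, Hsp90b1, Cct8, Hsp90ab1 and Stip1 to the 5. Over all genes, 60 were higher and 85 lower with limma, 275 and 347 with DESeq2, 202 and 323 with the replicate block, 1 to 212 and 5 to 221 with 1 library left out, 0 and 2 without both replicate 3 libraries, and 4 and 12 without them but with the block. Same-numbered libraries deviated together with correlations of 0.443, 0.399 and 0.0578 for replicates 1, 2 and 3. The correlation was -0.44 for liver replicate 1 with bone marrow replicate 2 and -0.38 for liver replicate 2 with bone marrow replicate 1. Replicates 1 and 2 therefore matched by number, as Xist and the Y-linked genes did. Liver replicate 3 correlated best with bone marrow replicate 2 (0.151), but an intermediate replicate 3 cannot decide the pairing. The labels name no animal shared by a number, so the main fit took none as pairs and its p-values ignore this matching. The median log2 fold change of the inducible class was 0.63, and 0.48 at a mean of at least 50, 0.49 to 0.69 with 1 library left out (lowest without liver replicate 1), and 0.47 without both replicate 3 libraries, with or without the block. For the co-chaperones it was 0.15, 0.06 to 0.18 with 1 library left out, and 0.19 without both replicate 3 libraries in both fits. For the ER class it was 0.01, -0.03 to 0.02 with 1 library left out, and -0.05 without both replicate 3 libraries in both fits. With 1 library left out it was 0.04 to 0.10 for the other J-domain genes and 0.12 to 0.21 for the mitochondrial class. Hspa1a, Hspa1b, Dnajb1, Hsp90aa1 and Hspe1 kept a positive sign under all 17 alternatives. The causes of these shifts were not tested beyond the smaller number of libraries. Liver depth, 9.73 to 13.8 M reads, limits the genes with few reads, such as Hspb1 and Hspa1l.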
